A study of Mus musculus with 15 samples.

Results

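The regions described here carried called peaks of 2 histone marks of enhancers, H3K27ac and H3K4me1, in mouse embryonic stem cells (ESCs) and of neither mark in D-EPSCs or L-EPSCs, the cells of a pair of culture conditions for extended or expanded potential stem cells (EPSCs). They were chosen by the peak calls themselves. H3K27ac peaks of the 3 cell states were merged into 70360 union regions where they overlapped or touched, and 37735 of these (53.6%) had a peak in ESCs only. Of the ESC-only regions, 31031 overlapped an H3K4me1 peak of ESCs by at least 1 bp, and 5435 of these overlapped no H3K4me1 peak of D-EPSCs or L-EPSCs. These 5435 regions, called members here, made up 17.5% of the ESC-only regions with H3K4me1 in ESCs and 14.4% of all ESC-only regions. The number fell to 3129 when an EPSC H3K4me1 peak within 1 kb also counted as overlap, and to 862 when only the widest peaks of each list were used, so that the 3 lists of a mark had the same number (lists of equal length). Because the calls selected the members, the absence of both marks in EPSCs is a condition of the selection and not a result, and the shares above are descriptions.

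Enhancers are recognised by combinations of histone marks. Monomethylation of lysine 4 on histone H3 (H3K4me1) marks enhancers that are primed or active as well as the flanks of promoters, and acetylation of lysine 27 (H3K27ac) marks enhancers and promoters that are active. An element that keeps H3K4me1 without H3K27ac is usually called primed, and one that has neither mark is called neutral or decommissioned. In mouse pluripotent cells the active enhancers are bound by factors such as OCT4, SOX2, NANOG, ESRRB and KLF proteins, and they change when the culture medium changes.

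All cells came from the J1 line of strain 129SV. ESCs were grown in serum medium with LIF and 2i, which is the GSK3 inhibitor CHIR99021 with the MEK inhibitor PD0325901. D-EPSCs were grown in N2B27 with serum replacement (KSR), LIF, CHIR99021, dimethindene maleate and minocycline hydrochloride, and L-EPSCs in DMEM/F12 with KSR, LIF, CHIR99021, PD0325901, A-419259, XAV939, JNK inhibitor VIII and SB203580. ChIP-seq was made from 2 samples per mark and state with 1 input per state, 15 samples in all, and the files used here hold 1 list of broad peaks per mark and state. The EPSCs were converted from ESCs, each state is a single line in its own medium, and serum, inhibitors and cell state therefore cannot be told apart. By the study's methods the EPSCs had grown without feeders before the ChIP-seq. For ESCs the sources allow either mouse embryonic fibroblast feeders or gelatin, so feeder chromatin in the ESC lists was not tested.

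With 1 list per mark and state there is no replicate and no test between states, and the read depth behind the lists is unknown. The ESC list of H3K27ac held 64342 peaks, that of D-EPSCs 32782 and that of L-EPSCs 26966. The H3K4me1 lists were closer to one another in number, at between 102751 and 107222 peaks. The summed width of their peaks was less even, rising from 173.1 Mb (L-EPSCs) through 187.5 Mb (D-EPSCs) to 221.1 Mb (ESCs). How far this difference in width shaped the selection was not tested. A missing peak says that no enrichment was called and not that the mark was absent. Intervals in parentheses are 95% Wilson intervals, which cover counting error only and treat regions as independent, although neighbouring regions are not. As a check of the labels, the start sites of Pou5f1, Sox2 and Nanog, which encode core pluripotency factors, were acetylated in all 3 lists.

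Sequences at the centre of 7 members are printed as examples of DNA that carried the pattern. They are the widest member of all (in Pou2f3), the widest isolated member near a signalling ligand (in Fgf10) and the widest members near 5 regulators of pluripotency or growth. Each is 300 bases of the plus strand of the mm9 reference genome, a C57BL/6 assembly, so bases of the 129SV cells may differ. Capitals mark exact matches, on either strand, to short letters known from the binding sites of transcription factors, which are GGGTGTG for KLF factors, AGATAAG for factors of the GATA family, CATTGTT for SOX, TGANTCA for AP-1, ACATTCC for TEAD and GGATTA for OTX2. The Stat3 window matched none of the 13 motifs searched. The examples do not represent the members in this respect, as 50.9% of all members had a match in their central 300 bp.
Pou2f3, chr9:42989459-42989758: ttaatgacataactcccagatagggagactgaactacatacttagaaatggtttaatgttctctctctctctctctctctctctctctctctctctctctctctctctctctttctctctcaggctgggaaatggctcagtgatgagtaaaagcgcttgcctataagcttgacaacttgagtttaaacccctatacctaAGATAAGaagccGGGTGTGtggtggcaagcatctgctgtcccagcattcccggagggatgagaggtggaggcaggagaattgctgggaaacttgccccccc
Fgf10, chr13:119522020-119522319: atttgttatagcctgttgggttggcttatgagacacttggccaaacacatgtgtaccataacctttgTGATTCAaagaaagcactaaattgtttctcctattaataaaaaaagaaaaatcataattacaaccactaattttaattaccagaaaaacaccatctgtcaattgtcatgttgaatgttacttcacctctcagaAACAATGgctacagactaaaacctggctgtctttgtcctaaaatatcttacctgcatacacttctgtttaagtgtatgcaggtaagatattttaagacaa
Stat3, chr11:100773759-100774058: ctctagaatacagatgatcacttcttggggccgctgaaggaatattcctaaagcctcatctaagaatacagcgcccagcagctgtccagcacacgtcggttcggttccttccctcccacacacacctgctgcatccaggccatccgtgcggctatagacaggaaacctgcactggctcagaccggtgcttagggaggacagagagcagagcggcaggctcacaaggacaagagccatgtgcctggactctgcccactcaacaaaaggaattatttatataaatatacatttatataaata
Pim1, chr17:29569333-29569632: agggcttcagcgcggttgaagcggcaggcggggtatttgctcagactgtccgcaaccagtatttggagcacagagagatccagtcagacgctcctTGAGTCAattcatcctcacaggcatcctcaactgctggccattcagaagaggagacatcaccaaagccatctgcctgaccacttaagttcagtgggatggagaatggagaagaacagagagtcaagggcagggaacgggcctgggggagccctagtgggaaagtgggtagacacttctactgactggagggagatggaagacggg
Myc, chr15:61812810-61813109: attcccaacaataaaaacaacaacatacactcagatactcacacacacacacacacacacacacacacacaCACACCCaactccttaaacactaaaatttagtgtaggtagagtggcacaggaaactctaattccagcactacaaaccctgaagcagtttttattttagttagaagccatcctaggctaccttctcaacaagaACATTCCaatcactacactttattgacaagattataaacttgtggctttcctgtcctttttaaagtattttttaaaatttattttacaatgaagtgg
Tbx3, chr5:120184969-120185268: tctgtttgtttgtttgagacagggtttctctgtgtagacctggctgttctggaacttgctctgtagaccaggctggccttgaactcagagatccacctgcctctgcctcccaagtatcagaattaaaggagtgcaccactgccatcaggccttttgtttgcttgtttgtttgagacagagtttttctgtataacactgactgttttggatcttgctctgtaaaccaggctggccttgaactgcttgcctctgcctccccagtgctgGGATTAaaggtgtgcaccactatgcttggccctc
Tet2, chr3:133144705-133145004: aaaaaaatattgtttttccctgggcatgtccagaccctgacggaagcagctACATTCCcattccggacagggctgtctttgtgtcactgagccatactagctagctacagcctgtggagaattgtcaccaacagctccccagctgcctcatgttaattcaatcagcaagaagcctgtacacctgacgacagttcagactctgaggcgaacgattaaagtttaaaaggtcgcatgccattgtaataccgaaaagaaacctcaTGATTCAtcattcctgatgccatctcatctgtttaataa

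These stretches differ widely in composition. The Fgf10 window had a GC content of 33.3% and no CpG, and the Pim1 window 55.0% with 8 CpGs. A long run of CT stood in the Pou2f3 window and a run of CA in the Myc window, where the KLF letters lie at the end of the run. The GGATTA of the Tbx3 window is followed by AAG, a form treated further with the motif counts.

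Members were short and lay away from promoters. Their median width was 559 bp (quartiles 351 and 867.5 bp, range 210 to 7386 bp), against 817 bp for the 19826 ESC-only regions that kept H3K4me1 in both EPSCs (kept regions) and 2806.5 bp for the 14972 regions acetylated in all 3 states. A wider region meets a peak more easily, so the smaller width is linked to the selection, and with lists of equal length, which hold the widest peaks, the median of members was 1443 bp. Of the members, 56 lay within 1 kb of a protein-coding start site, which is 1.03% (0.794 to 1.34). This share was 5.72% (5.41 to 6.05) for kept regions, 32.4% for regions acetylated in all 3 states and 12.9% for all union regions. Among regions 500 to 1000 bp wide the shares were 0.959% (0.622 to 1.48) for 2086 members and 5.85% (5.31 to 6.44) for 6585 kept regions, so the gap between the classes was as large at matched width.

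A start site itself was covered by 13 members, none of them at a gene of the lists used here. The genes named next were chosen after their values were seen. They included Ctss, which encodes the lysosomal protease cathepsin S, Slc27a5, a bile acid ligase of liver, Apoc4, an apolipoprotein, Fxyd2, a subunit of the sodium pump of kidney, Tsks, a kinase substrate of the testis, and Spaca4, a sperm acrosome protein. The widest of the 13 was 3539 bp at Apoc4 (chr7:20263816-20267354), and the member at Ctss was 1136 bp wide (chr3:95330703-95331838).

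Most members were intronic or intergenic. Introns held the centre of 60.3% of members and 56.5% of kept regions, exons 5.57% and 6.40%, and intergenic DNA 34.2% and 37.1%. The median distance to the nearest start site was 23744 bp for members and 18149 bp for kept regions. Of the members 25.1% lay within 10 kb of a start site and 25.6% lay more than 50 kb away, whereas 35.1% of kept regions lay within 10 kb. GC content differed little, with a median of 47.4% in members and 47.8% in kept regions. CpG-rich windows were less frequent, since 13.6% of members had at least 10 CpGs in the central 500 bp, against 22.1% of kept regions and 36.5% of regions acetylated in all 3 states. This was shared with the ESC-only regions that kept H3K4me1 in just one kind of EPSC (14.2%) and with those that had none in ESCs (16.0%). Members were spread over all 20 chromosomes in the lists and made up between 12.0% (39 of 325 on chromosome X) and 16.4% (353 of 2157 on chromosome 9) of the ESC-only regions.

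The H3K4me1 of ESCs at members was narrower than at kept regions. The widest ESC H3K4me1 peak at a member had a median of 1790 bp, against 3380 bp at kept regions, and ESC H3K4me1 covered the whole region in 47.8% of members and 75.2% of kept regions. Regions that kept H3K4me1 in just 1 kind of EPSC lay between, at 2352 bp and 63.9%. The part of the selection in these differences was not tested. ESC H3K4me1 covered the centre of 81.2% of members and, at 1 kb from the centre, between 41.6% and 42.9% of them. At kept regions these values were 95.1% at the centre and at least 64.8% at 1 kb. At 5 kb the classes were closer, with 42.6% to 43.0% of members and 42.2% to 42.9% of kept regions under ESC H3K4me1.

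EPSC H3K4me1 peaks were called in the surroundings of many members, though no random regions were drawn as a background for these shares. The share of members under a D-EPSC H3K4me1 peak was 0% at the centre by selection, reached 11.7% and 12.3% at 1 kb to either side, 23.1% and 21.9% at 2 kb and 28.5% and 28.0% at 5 kb. L-EPSC H3K4me1 was slightly lower at each distance, with 9.83% and 10.3% at 1 kb and 25.4% and 25.2% at 5 kb. At 5 kb D-EPSC H3K4me1 covered 31.7% to 32.8% of kept regions and that of L-EPSCs 28.0% to 28.6%. Nearer the centre D-EPSC H3K4me1 covered at least 47.4% of kept regions at 1 kb and 34.4% to 34.6% at 2 kb. A gap between the classes near the centre follows from their definition, as kept regions overlap an EPSC H3K4me1 peak and members do not. ESC H3K27ac was less frequent at 1 kb from members, covering 12.6% and 12.8% of them against 20.0% of kept regions on either side. At 5 kb the order was the other way, with 26.6% and 27.3% of members and 22.8% and 22.0% of kept regions. EPSC H3K27ac at 5 kb covered 5.13% to 6.70% of members and 5.09% to 6.59% of kept regions.

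**Figure D1:**
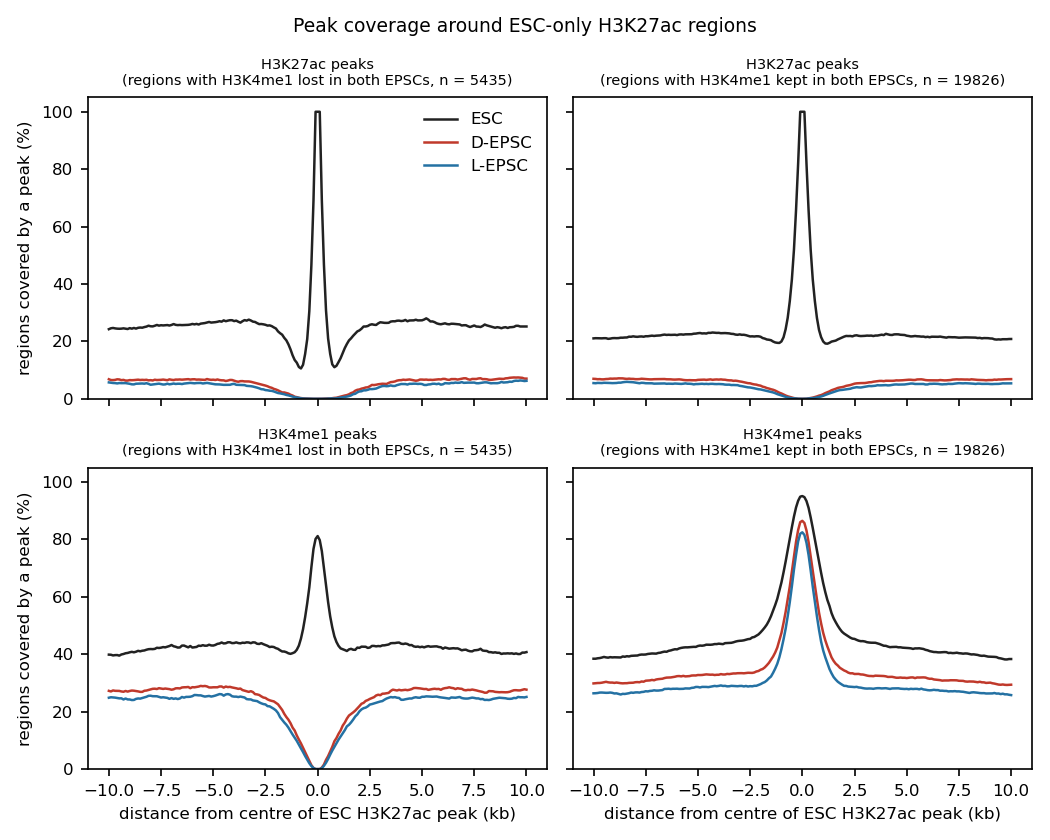
Share of regions (%) covered by a peak at each distance (kb) from the centre of the ESC H3K27ac peak, for H3K27ac (top) and H3K4me1 (bottom), for members (left) and regions that kept H3K4me1 in both EPSCs (right); lines are ESCs, D-EPSCs and L-EPSCs. Around members the EPSC H3K4me1 lines start at 0% by selection and reach 25.2% to 28.5% at 5 kb, while ESC H3K4me1 peaks at 81.2%.

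The nearest EPSC H3K4me1 peak lay at a median of 1278 bp from a member (quartiles 517 and 2809 bp). It was within 1 kb of 2306 members (42.4%) and within 5 kb of 87.8%, and more than 10 kb away from 224 (4.12%). Taken by state, the median was 1538 bp for D-EPSC peaks and 1743 bp for L-EPSC peaks. The D-EPSC peak was the nearer in 3137 members (57.7%) and the L-EPSC peak in 2294 (42.2%). The nearest H3K27ac peak of either EPSC was farther, at a median of 6676 bp, within 1 kb of 232 members (4.27%) and beyond 10 kb of 2022 (37.2%). The EPSC H3K27ac lists are much shorter than the H3K4me1 lists. This distance was not particular to members, as its median was 6124 bp for kept regions and 6363 bp for all ESC-only regions. For H3K27ac the medians were 7964 bp (D-EPSCs) and 10543 bp (L-EPSCs), and the L-EPSC list is the shorter of the pair. Members that had no EPSC peak of either mark within 10 kb numbered 210 (3.86%).

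**Figure D2:**
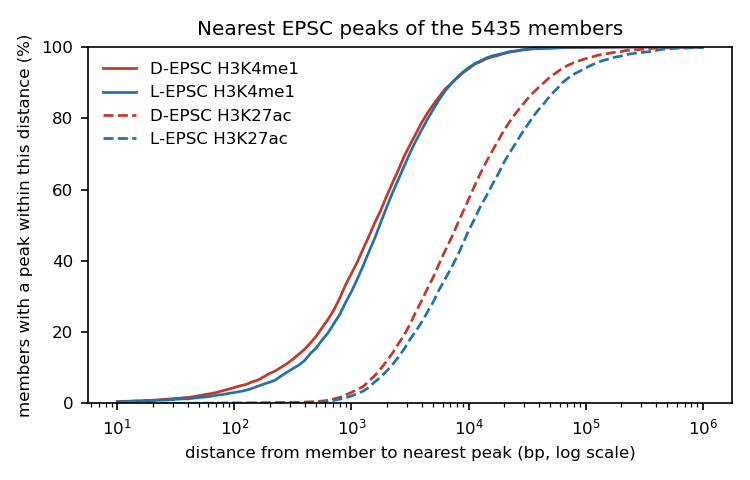
Cumulative share of members (%) with an EPSC peak within a given distance (bp, log scale), by mark (solid H3K4me1, dashed H3K27ac) and cell state. H3K4me1 lies within 5 kb of 87.8% of members when the nearer of the EPSC peaks is taken, and the H3K27ac lines lie to the right of the H3K4me1 lines.

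The edge of the selection was thin on both sides. The nearest EPSC H3K4me1 peak touched a member at a distance of 0 bp in the closest case and lay within 100 bp of 365 members, and 573 ESC-only regions with H3K4me1 in ESCs missed selection through an EPSC overlap of at most 100 bp, the smallest being 1 bp. At the other condition, 283 members overlapped ESC H3K4me1 by at most 100 bp, the smallest also by 1 bp. These values are given with no test.

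Members fell into classes of nearly equal size by what became of the ESC H3K4me1 peak beneath them. At 2831 members (52.1%) the ESC H3K4me1 peaks met no EPSC H3K4me1 peak over their whole length. At the other 2604 (47.9%) an ESC H3K4me1 peak met an EPSC peak beside the member, so that EPSC H3K4me1 was called along another part of that ESC peak. In the first class the ESC H3K4me1 peak had a median of 909 bp and the nearest EPSC H3K4me1 lay at a median of 2637 bp, within 1 kb of 10.3%. In the second these values were 4281.5 bp, 523.5 bp and 77.4%. A longer ESC peak meets an EPSC peak more easily, and an EPSC peak that meets it tends to lie near. These differences are therefore linked to the way the classes were split. The H3K27ac regions themselves were similar in width, at a median of 605 and 524 bp, and so were their start site shares, at 0.848% (0.570 to 1.26) and 1.23% (0.872 to 1.73). The stretch free of EPSC H3K4me1 around a member had a median of 7922.5 bp (quartiles 4345 and 15048 bp), counted over the 5434 members with an EPSC peak on either side.

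Of the ESC-only regions with H3K4me1 in ESCs, 5770 had H3K4me1 in just one kind of EPSC, 3565 of them in D-EPSCs and 2205 in L-EPSCs. Their width (median 625 bp) and start site share (1.33%, 1.07 to 1.66) lay close to those of members. The same selection made for the other states gave fewer regions. Among regions acetylated in D-EPSCs only with H3K4me1 there, 241 of 2952 (8.16%) had no H3K4me1 in the other states, in L-EPSCs only 384 of 1519 (25.3%), and in both EPSCs without ESCs 401 of 1047 (38.3%) had none in ESCs. The ESC value of 17.5% lay between them. List lengths differ between the states, and their part in these shares was not tested.

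The widest member was 7386 bp (chr9:42985916-42993301) in an intron of Pou2f3 (ENSMUSG00000032015.6), which encodes a POU factor known from chemosensory tuft cells. It lay 28843 bp downstream of the start site, carried an ESC H3K4me1 peak of 7666 bp, and was 3015 bp from the nearest D-EPSC H3K4me1 peak and 3149 bp from that of L-EPSCs. EPSC H3K27ac was no nearer than 61293 bp. Pou2f3 held 6 members among 11 ESC-only regions, and over their span of 48.2 kb H3K27ac covered 26.2 kb in ESCs and 0 kb in both EPSCs. H3K4me1 over the same span covered 41.4 kb in ESCs but 10.9 kb (D-EPSCs) and 9.44 kb (L-EPSCs) in the others, so the EPSCs held H3K4me1 there without any acetylation peak. A second Pou2f3 member of 2845 bp (chr9:42973080-42975924) was among the widest members with no EPSC peak of either mark within 10 kb, its nearest being D-EPSC H3K4me1 at 14239 bp.

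The other wide members lay at genes of varied function. One of 4655 bp (chr8:109993420-109998074) was in an intron of Wwp2, a ubiquitin ligase gene, with the start site of Rps26-ps1 the nearest, and one of 4149 bp (chr16:48595750-48599898) was in an intron of Morc1, which acts in the silencing of transposons in male germ cells. A member of 4062 bp (chr1:136321912-136325973) covered exon and intron of Adipor1, an adiponectin receptor gene, and one of 4035 bp (chr11:77917110-77921144) an intron of BC017647. The member of 3967 bp near Terf1 (chr1:15787425-15791391), a gene for a telomere-binding protein, lay 6331 bp upstream of the start site. ESC H3K4me1 covered between 24.7% (Terf1) and 86.3% (Pou2f3) of these 6 regions, so a wide member was not always methylated over its length. At Morc1 and Adipor1 the ESC H3K4me1 peak met an EPSC peak beside the member, and at the other 4 it did not.

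Among the isolated members, the widest was 2971 bp in an intron of Ncoa1 (chr12:4430027-4432997), which encodes a coactivator of nuclear receptors. The nearest EPSC H3K4me1 peak lay 19351 bp away and the nearest EPSC H3K27ac peak 21676 bp away. The widest isolated member near a signalling ligand was 2395 bp in an intron of Fgf10 (ENSMUSG00000021732.8, chr13:119520973-119523367), a fibroblast growth factor of organ budding, at 14819 bp from D-EPSC and 16225 bp from L-EPSC H3K4me1. Fgf10 held 4 members of 866 to 2395 bp among 8 ESC-only regions, and over their span of 76.8 kb H3K27ac covered 17.9 kb in ESCs and 0 kb in both EPSCs, while H3K4me1 covered 18.7 kb in ESCs against 5.53 kb (D-EPSCs) and 3.61 kb (L-EPSCs). The fourth isolated member named was 2133 bp in an intron of Plekhg1 (chr10:6509917-6512049).

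**Figure D3:**
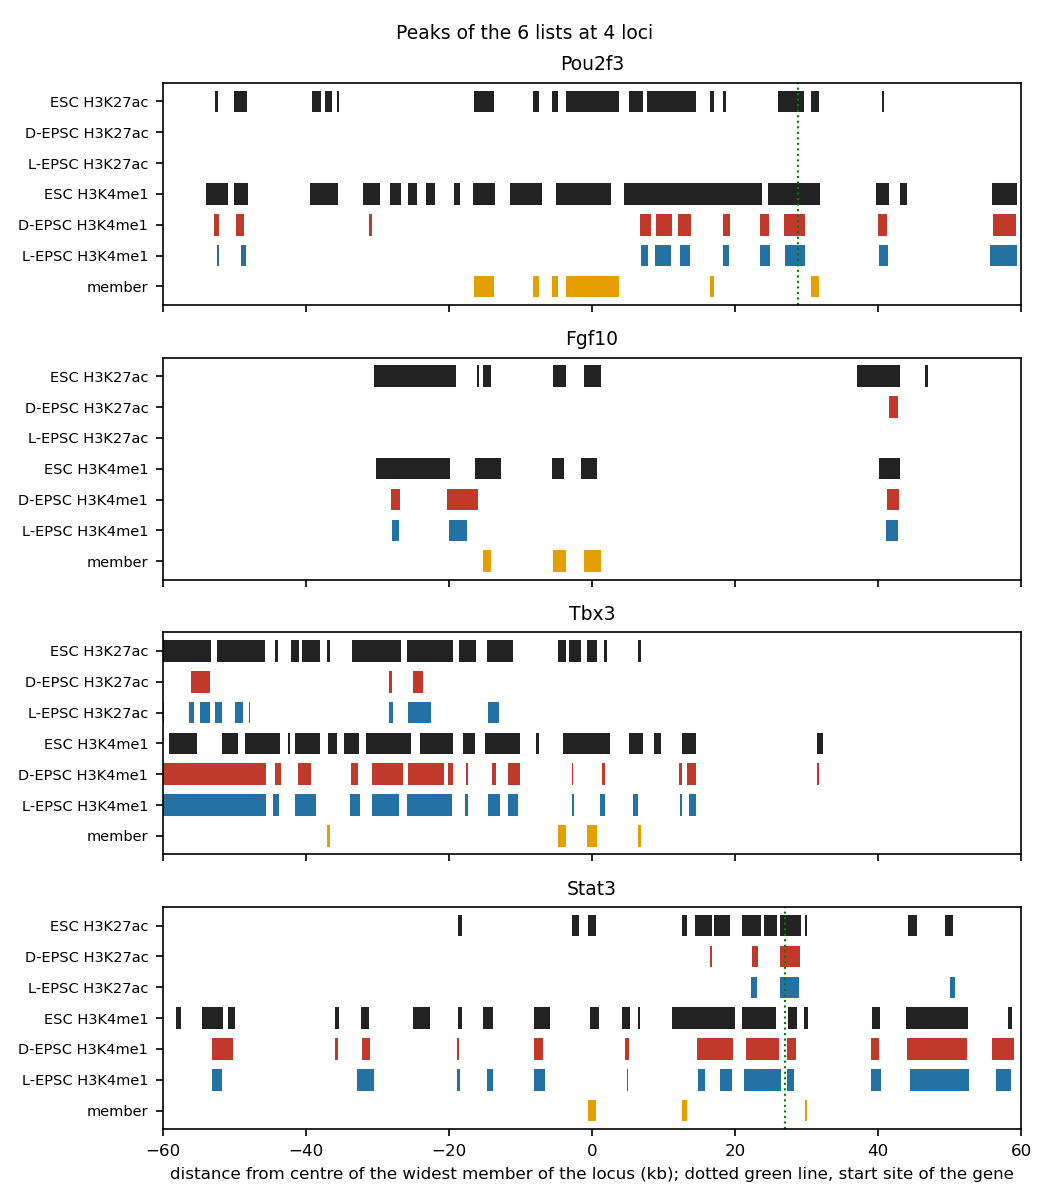
Peaks of the 6 lists (1 row each) and members (orange) within 60 kb of the widest member near Pou2f3, Fgf10, Tbx3 and Stat3; the axis is distance (kb) from that member's centre, and a dotted line is the start site of the gene where it falls inside. At Pou2f3 the EPSC H3K27ac rows are empty, whereas at Stat3 both EPSCs have H3K27ac at the start site.

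Some members lay close to one another. When members no more than 12.5 kb apart were linked, 2051 (37.7%) stood in groups of 2 or more and 3384 stood alone, and the largest groups held 8. No such count was made for other ESC-only regions, so the grouping cannot be called a trait of members. The genes with the most members were Dab2ip, a scaffold that restrains Ras, with 14 of its 27 ESC-only regions, Ror2, a receptor for non-canonical Wnt signals, with 14 of 30, Epb4.1l4b, of the band 4.1 family that links membrane and cytoskeleton, with 12 of 25, Wbscr17, a glycosyltransferase gene, with 12 of 24, and Dst, a cytoskeletal linker gene, with 11 of 28. At these 5 genes between 39.3% and 51.9% of the ESC-only regions were members, against 14.4% over all genes, as the ranking by member count favours. The Wbscr17 members lay 130109 to 257825 bp from its start site, and the widest of them was in Auts2, so the nearest start site is a label of position only.

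At Epb4.1l4b the 12 members spread over 110.3 kb, in which ESC H3K27ac covered 45.1 kb, D-EPSC H3K27ac 0.204 kb and L-EPSC H3K27ac 0 kb. H3K4me1 there covered 67.0, 11.4 and 11.8 kb in the same order of states. Ror2 kept more in EPSCs. Over 135.8 kb ESC H3K27ac covered 74.3 kb, that of D-EPSCs 7.01 kb and that of L-EPSCs 8.82 kb, and H3K4me1 covered 125.6, 45.0 and 48.0 kb in that order. The widest Ror2 member, 3011 bp (chr13:53350420-53353430), lay inside a single ESC H3K4me1 peak of 23645 bp, the nearest EPSC H3K4me1 being 2926 bp away. At Dab2ip, over 193.0 kb, ESC H3K27ac covered 66.4 kb, that of D-EPSCs 4.29 kb and that of L-EPSCs 5.13 kb.

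To see which known regulators had members nearby, 172 genes in 11 lists were examined, each gene taking the members for which its start site was the nearest. All 172 were found, 4 of them through older symbols. At least 1 member was near 60 of the 172 (34.9%), against 3312 of 22208 protein-coding gene symbols (14.9%). Counted instead by a member within 10 kb of the gene body, 38 of the 172 had one, and this count has no background over all genes here. It changed the lists unevenly, from 7 genes to 3 for LIF and STAT3, from 3 to 0 for formative and primed epiblast and from 2 to 4 for DNA methylation, while the Wnt pathway stayed at 8. Genes of pluripotency have many ESC-only regions of any kind, so the share of those regions that were members, 14.4% over the genome, is the second background.

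Of the core pluripotency list 8 of 15 genes had a member, and 16 of 128 ESC-only regions near its genes were members (12.5%, 7.84 to 19.3). Dppa4, which encodes a chromatin protein of pluripotent cells, had 3 members of 296 to 1038 bp, 7035 to 9448 bp upstream, over whose span of 3.08 kb neither EPSC had a peak of either mark. Members fill 2.31 kb of that span, so this absence is mostly set by the selection. Rif1, a telomere and replication timing factor, and Jarid2, a partner of Polycomb repressive complex 2, had 3 each, those of Jarid2 at 73346 to 238212 bp from its start site. Nanog had 2, the wider of 1085 bp (chr6:122626743-122627827) lying 30222 bp upstream. That region stood at the edge of the selection, as D-EPSC H3K4me1 began 170 bp away and L-EPSC H3K4me1 18 bp away. Zfp281 had 2 members, Sox2, Utf1 and Dppa2 had 1 each, and Pou5f1 had none.

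The naive pluripotency list had members at 8 of 16 genes and at 28 of 156 ESC-only regions (17.9%, 12.7 to 24.7). Tbx3, a T-box factor of naive cells, had 10 members of 224 to 1289 bp, all within 59 to 2607 bp of EPSC H3K4me1. Over the 369.8 kb that they span, ESC H3K27ac covered 109.5 kb, that of D-EPSCs 13.9 kb and that of L-EPSCs 39.0 kb. H3K4me1 over the same span covered 144.0, 85.9 and 103.3 kb in that order, so both EPSCs held H3K4me1 between the Tbx3 members. Tfcp2l1 (Tcfcp2l1 in the annotation), a target of the LIF and STAT3 pathway, had 6 of its 13 ESC-only regions among the members, the widest of 2205 bp (chr1:120557471-120559675) over exon and intron. That one lay 64 bp from L-EPSC H3K4me1 and 5269 bp from that of D-EPSCs. Nr5a2, an orphan nuclear receptor, had 4 members of 31, Klf4, Klf5 and Prdm14 had 2 each, and Klf2 and Tet2 had 1 each. The wider Prdm14 member (1319 bp, chr1:13218241-13219559) lay in an intron of the neighbouring Ncoa2, 101656 bp upstream of Prdm14. Esrrb had none.

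Of the LIF and STAT3 list 7 of 14 genes had a member, and 10 of 80 ESC-only regions were members (12.5%, 6.93 to 21.5). Stat3, the transcription factor of the pathway, had 3 of its 6, in which the widest was 1217 bp in an intron (chr11:100773301-100774517) at 4049 bp from D-EPSC and 4203 bp from L-EPSC H3K4me1. Lifr, the LIF receptor gene, had 2, and Il6st, its co-receptor, Jak2, the kinase, Socs3, the feedback inhibitor, and Pim1 and Pim3, kinases induced by STAT3, had 1 each. Over the 30.7 kb of the Stat3 members ESC H3K27ac covered 14.2 kb, against 3.88 kb (D-EPSCs) and 3.44 kb (L-EPSCs).

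The lists for the Wnt pathway and for ERK had shares below the 14.4% over the genome, a value inside the Wnt interval and above the ERK interval. In the Wnt list 8 of 22 genes had a member and 12 of 114 ESC-only regions were members (10.5%, 6.12 to 17.5), with 3 at Tcf7l2, 2 each at Axin1 and Tcf7 and 1 each at Axin2, Tcf7l1, T, Cdx1 and Znrf3. In the list of ERK targets and feedback 6 of 19 genes had one and 8 of 124 regions were members (6.45%, 3.31 to 12.2). The wider Myc member, of 1134 bp (chr15:61812393-61813526), lay 3986 bp upstream of the start site of this growth regulator and 758 bp from D-EPSC H3K4me1, within an ESC H3K4me1 peak of 6991 bp. At Fos, the early response AP-1 gene, ESC H3K4me1 covered only 8.09% of a member of 1558 bp. Spred2 had 2 members, and Spry4, Spred1 and Fgfr1 had 1 each.

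FGF ligands had members at 4 of 14 genes and at 9 of 34 regions (26.5%, 14.6 to 43.1), of which 4 were at Fgf10, 2 each at Fgf1 and Fgf3 and 1 at Fgf15. In the Nodal and BMP list 7 of 20 genes had a member and 13 of 117 regions were members (11.1%, 6.61 to 18.1). Smad7, an inhibitor of both branches, had 6, Bmpr1a had 2, and the receptors Acvr1b and Acvr2b, Smad3, Bmp4 and the protease gene Pcsk6 had 1 each.

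In lists of later and extraembryonic fates the share of ESC-only regions that were members ran from 7.55% to 16.3%. In the formative and primed epiblast list 3 of 17 genes had a member (Otx2, Pou3f1 and Sox4) and 4 of 53 regions were members (7.55%, 2.97 to 17.9). These lay 77792 bp (Otx2), 17067 bp (Pou3f1) and 103687 to 257945 bp (Sox4) from the start site. No gene of this list had a member within 10 kb of its body. In the trophoblast list 5 of 18 genes had one, with 9 of 69 regions (13.0%, 7.02 to 23.0). Tead4, which acts at the top of trophectoderm specification, had 4 members of 546 to 1551 bp, and over their 14.3 kb H3K27ac covered 6.74 kb in ESCs and 0 kb in both EPSCs, with H3K4me1 at 8.27, 2.25 and 2.22 kb. Tfap2c had 2, at 50913 to 148431 bp from the start site, and Eomes (128702 bp) and Bmp4 (32936 bp) had 1 each. In the primitive endoderm list 4 of 16 genes and 8 of 49 regions were counted (16.3%, 8.51 to 29.0), with 3 for Lama1, 2 each for Sparc and Dab2 and 1 for Gata6. The Dab2 members lay 274146 to 284093 bp and the Gata6 member 160059 bp from the start site. Over the 18.9 kb of the Lama1 members, a laminin gene of the basement membrane, H3K27ac covered 7.15 kb in ESCs and 0 kb in both EPSCs and H3K4me1 14.4, 1.84 and 6.16 kb.

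The DNA methylation list had members at 2 of 16 genes and at 2 of 47 regions (4.26%, 1.17 to 14.2). The Mettl4 member, near a gene for an adenine methyltransferase, was 1145 bp (chr17:95083587-95084731), 65200 bp from the start site and 1461 bp from D-EPSC H3K4me1. The Tet2 member was 358 bp in an intron (chr3:133144676-133145033) and lay 2613 bp from D-EPSC H3K4me1. The genome value of 14.4% lay inside the interval of 8 lists, above that of the ERK and DNA methylation lists and just under that of FGF ligands. These intervals treat regions as independent although regions of a gene lie side by side, and none of these shares was tested.

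**Figure D4:**
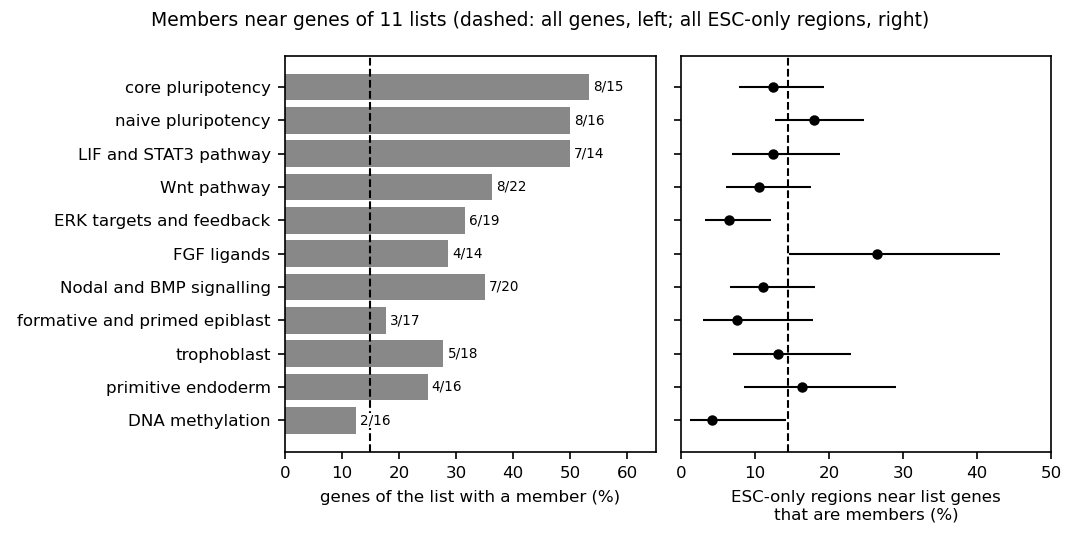
Left, share of the genes of each list that have a member (%), with counts; the dashed line is the 14.9% of all protein-coding gene symbols. Right, share of ESC-only H3K27ac regions near genes of the list that are members (%, points) with 95% Wilson intervals; the dashed line is 14.4%, the share over all ESC-only regions, and the lists run from 4.26% (DNA methylation) to 26.5% (FGF ligands).

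Motif letters were counted in the 500 bp around the centre of each member to see what sequence features they share. At least 1 of the 13 motifs stood in 69.3% of members (68.1 to 70.5), 73.6% of kept regions and 72.0% of all union regions, so the members carried no more of these letters than other regions. Among the letters of pluripotency factors, those of ESRRB and NR5A2, STAT and SOX were about as frequent in members as in kept and all regions. The POU octamer had a slightly lower share in members than in kept regions (2.47 to 2.92), with overlapping intervals. Away from start sites and among regions 500 to 1000 bp wide, it stood in 2.37% of members (1.80 to 3.12) and 2.79% of kept regions (2.41 to 3.23). The KLF letters, given below, were also less frequent in members. The ESRRB and NR5A2 letters (TCAAGGTCA) stood in 2.61% of members (2.22 to 3.07), 2.80% of kept and 2.36% of all regions, but in 1.42% (1.16 to 1.73) of the ESC-only regions without H3K4me1 in ESCs. The POU octamer (ATTTGCAT) stood in 2.21% (1.85 to 2.63), 2.68% and 2.46%, and the STAT letters (TTCCNGGAA) in 1.80% (1.48 to 2.19), 2.03% and 1.93%. SOX letters stood in 7.49%, 7.77% and 7.29%.

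GC-rich motifs were less frequent in members than in kept regions. The SP/ZFP281 letters (GGGGNGGGG) were in 11.9% of members (11.1 to 12.8), 18.5% of kept regions and 16.8% of all regions, KLF letters in 12.9% (12.0 to 13.8), 15.5% and 13.2%, and TFAP2 letters (GCCNNNGGC) in 11.5% (10.7 to 12.4), 13.7% and 15.1%. The lower shares were not particular to members. SP/ZFP281 letters stood in 13.6% of regions that kept H3K4me1 in just one kind of EPSC and in 11.0% of ESC-only regions without it in ESCs, and TFAP2 letters in 11.0% and 13.5%. These letters are also those of promoters. Away from start sites and among regions 500 to 1000 bp wide, SP/ZFP281 letters stood in 13.3% of 2066 members (11.9 to 14.8) and 19.4% of 6200 kept regions (18.4 to 20.4), and the KLF and TFAP2 letters in 12.9% and 11.5% of members against 15.1% and 13.3% of kept regions. The SP/ZFP281 share of the 2123 such regions with H3K4me1 in just one kind of EPSC was 13.6%. TCF/LEF letters (CTTTGAT) were in 8.32% of members (7.61 to 9.08), 7.90% of kept and 7.29% of all regions, AP-1 letters in 14.7%, 14.7% and 16.0%, GATA letters in 6.13%, 5.91% and 5.70%, and TEAD letters in 6.95%, 7.14% and 7.05%. Direct repeats of AGGTCA after 5 bases, the RAR-RXR form, stood in 5 members (0.0920%, 0.0393 to 0.215), 0.0555% of kept and 0.0526% of all regions.

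The OTX2 letters were the most frequent, in 23.0% of members (21.9 to 24.1), 21.9% of kept and 20.8% of all regions. Many of these matches stood in the longer string GGATTAAAG, which belongs to the consensus of the B1 repeat, a short interspersed element with very many copies in the mouse genome. The longer string was in 529 members (9.73%), 7.95% of kept and 7.24% of all regions, and it stood in 42.4% of the members that matched OTX2. When it was set aside, OTX2 letters stood in 14.6% of members, 15.2% of kept and 14.6% of all regions, and the order of members and kept regions turned. Runs of at least 10 copies of 2 bases, as in the Pou2f3 and Myc windows above, stood in 6.99% of members (6.34 to 7.70) and 7.27% of kept regions. Matches are letters in a window and not evidence of binding.

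**Figure D5:**
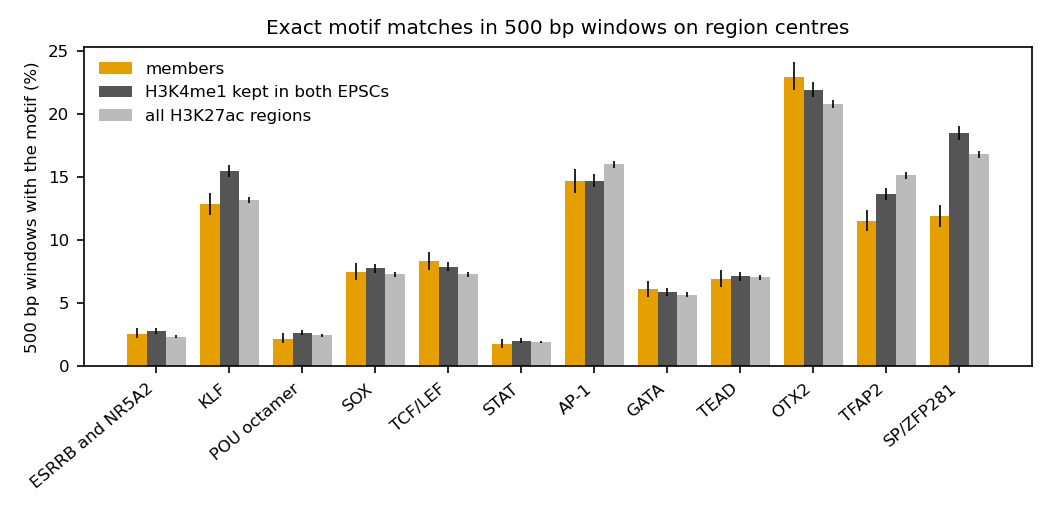
Share of 500 bp windows (%) that hold an exact match to each of 12 motifs, for members, regions that kept H3K4me1 in both EPSCs and all H3K27ac union regions; lines are 95% Wilson intervals. SP/ZFP281 letters stand in 11.9% of members and 18.5% of kept regions, and the other motifs differ less.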

How the data were processed

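H3K4me1 and H3K27ac ChIP-seq was read from 6 deposited peak lists, 1 per mark and cell state. According to the methods and the processing notes, the authors trimmed reads (Trim Galore 0.6.3), aligned them to mm9 with Bowtie2 2.3.5, sorted them with SAMtools 1.10 and called broad peaks with MACS against input. HOMER is also named in the notes, without a role. The deposited files give peak start and end positions only, with no score, count or depth. Thresholds and the pooling of replicates are not given in the sources used here, and both can change which peaks are listed.

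Groups came from the sample labels. Positions were checked against the NCBIM37 genome, which is mm9. No peak overlapped another of its list or passed a chromosome end. Lists were taken as 0-based and are printed 1-based. The annotation was GENCODE M1 with 22350 protein-coding genes, whose first bases were the start sites. Distances to a start site run from the middle of a region. The shares within 1 kb of a start site and the distances to peaks were taken from the region edges, so a wider region meets a start site more easily. Motifs were matched exactly on both strands.

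The members, gene lists and measures were chosen with earlier results of these data known. Named regions are the 6 widest members, the 4 widest with no EPSC peak within 10 kb, the 5 genes with the most members, every gene of a list with a member, and the widest member of up to 3 genes per list. A single gene with a member is counted but not reported here by name. No test was run, since each state and mark has 1 list. The code was tested on simulated data, where 2203 regions in 100 simulated sets gave 0 errors. Python 3.11.15, numpy 2.4.6, pandas 2.3.3, scipy 1.17.1 and matplotlib 3.10.9 were used.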

Additional observations from a re-analysis of the deposited data

How the results depend on the processing

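No paired analysis was possible because each mark and state has 1 list and the lists carry no replicate numbers. The number of members depended most on the lists. It was 3129 when EPSC H3K4me1 within 1 kb also counted, 862 with lists of equal length, 3555 with union regions joined over 1 kb and 3863 with peaks of at least 500 bp, and 3129, 830, 3707 and 2820 of the 5435 members were still inside the members of those settings. All 10 of the widest members remained with lists of equal length, and 6 remained when H3K4me1 within 1 kb counted.

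The start site share was 1.51% with lists of equal length and 4.01% with start sites widened by 2500 bp. The median distance to a start site was 24989 bp when H3K4me1 within 1 kb counted and 26604.5 bp with lists of equal length. The median width was 588 bp with H3K4me1 over at least 20% of the region, 588 bp when H3K4me1 within 1 kb counted, 840 bp with peaks of at least 500 bp, 1443 bp with lists of equal length and 584 bp with joined regions. Median GC content was 46.7% with peaks of at least 500 bp, 46.4% with lists of equal length and 46.9% among members 500 to 1000 bp wide, the last chosen after seeing the data. The share with EPSC H3K4me1 within 1 kb was 49.8% with the 20% overlap, 40.5% when EPSC H3K27ac within 1 kb counted, 33.9% with peaks of at least 500 bp, 34.7% with lists of equal length and 29.9% with joined regions. Motifs stood in 50.9% of 300 bp windows, and 38 list genes had a member by gene body. The cause of these shifts was not tested beyond the construction of each setting.

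The other 25 values of these measures moved by less than their counting error or, for numbers of members, lay between 3863 and 5961. Read depth is unknown, so an absent peak cannot be told apart from a weak one.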
